A study of Arabidopsis thaliana with 14 samples.

Results

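The comparison described here sets roots kept for 72 h on a medium without iron against roots on standard medium. RNA came from whole roots of Columbia seedlings of Arabidopsis thaliana. It uses the 2 arrays labelled 72 h without iron and the 2 arrays labelled standard, which are 4 of the 14 arrays of a time course with 7 groups of 2. All probe sets other than the 64 Affymetrix controls belong to it, and the 13648 of 22746 with the higher mean levels were tested. All groups grew for 5 days on a Murashige and Skoog medium with Fe(III)-EDTA as its iron source and with sucrose. The 72 h group was then moved to a medium in which 0.3 mM Ferrozine, a binder of ferrous iron, replaced the iron source. The standard group was moved to fresh standard medium for 3 h, so no control matches the 72 h since transfer. Each array came from a separate biological replicate of about 320 pooled roots, cut just below the hypocotyl. The labels date every harvest to a 3 h window on day 6, which cannot hold with 5 days of growth before a transfer of 72 h, so the age of the 72 h roots is not settled here.

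Iron is a cofactor of heme proteins, iron-sulfur proteins and many oxidases, so a root short of iron both takes up more and spends less. Arabidopsis acidifies the soil, reduces ferric iron at the root surface and imports the ferrous ion, and it secretes coumarins that dissolve and reduce ferric iron. A cascade of bHLH transcription factors switches this programme on, small IMA peptides strengthen it, and E3 ligases that bind iron hold it back. Mitochondria hold much of the iron of a root cell, in the respiratory chain and in iron-sulfur cluster assembly. Plants also have respiratory enzymes outside the main chain that carry no iron-sulfur cluster and no heme, and a set of nuclear genes that is switched on when mitochondria fail.

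The arrays fall into 2 sets that coincide with time, and this touches every result below. Hybridisation controls, RNAs added in fixed amounts to each sample, had a geometric mean signal of 378 to 440 on the 4 arrays of 48 and 72 h and of 2172 to 3232 on the other 10 arrays. All 18 of their probe sets were lower on each of the 4 later arrays than on each of the others. The highest signal was 15134 and 12352 on the 72 h arrays, against 43173 and 42325 on the standard arrays. No group lies in both sets, so array set and time cannot be told apart in any comparison of 72 h with standard medium. The ratio of 3′ to 5′ signal of the actin control, a measure of labelling and RNA length, was 2.27 and 5.2 at 72 h against 8.57 and 9.66 on standard medium, and that of the GAPDH control was 0.477 and 0.48 against 0.75 and 0.679. That of the ubiquitin control overlapped, with 2.84 and 2.02 against 3.54 and 1.75. For that reason the values at 24 h, the latest time on arrays of the earlier set, and at 48 h, the other time of the later set, are given beside many of the results. The 24 h and 72 h differences share the standard arrays, and those at 24 h are given as values without a test.

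At 72 h without iron, 4904 probe sets passed an adjusted p of 0.05 in limma, which is 35.9% of those tested. Of these, 2503 were higher (18.3%) and 2401 lower (17.6%) than on standard medium, and 6098 passed an unadjusted p of 0.05. The number higher was 1584 without the first 72 h array. Changes of at least 4-fold were called for 218 higher and 312 lower probe sets, and changes of at least 16-fold for 33 and 27. Fold changes are differences of log2(signal + 16), a scale that shrinks the changes of dim probe sets. The share of calls that were higher was 51.0%, and it was 39.7% (1888 higher, 2865 lower) when each array was centred on the median of the tested probe sets, a setting chosen after the data had been seen. The median difference over all tested probe sets was 0.07 on the log2 scale as deposited. With that centring it was -0.05. The platform's table gives a single gene for 2424 of the called probe sets (1283 higher, 1141 lower), and the genes below come from these.

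The split between higher and lower depended on how bright a probe set was. Among the 683 brightest tested probe sets, the top 5% with a level of at least 2010 over the 4 arrays, 9.37% were called higher and 47.0% lower, with a median difference of -0.39. After quantile normalization, which gives all arrays 1 distribution of signal, the same 683 gave 23.3% higher and 26.5% lower, with a median of -0.02. Probe sets with a level between 305 and 627 leaned the other way, with 25.9% higher and 13.8% lower as deposited. Quantile-normalized counts are therefore given for the peroxidase, berberine bridge enzyme-like and ribosomal lists. The differences of single genes below are as deposited, so those of bright genes may shift with the scaling.

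**Figure D1:**
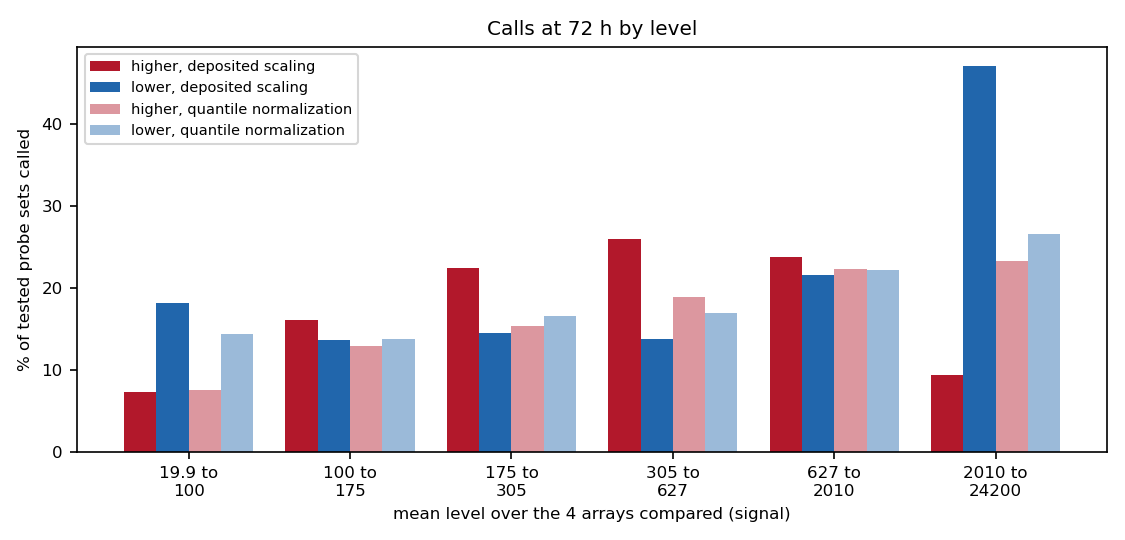
Percentage of tested probe sets called higher (red) or lower (blue) at 72 h without iron against standard medium, in 6 bins of mean signal over the 4 arrays. Full colours show the deposited scaling and pale colours quantile normalization. In the brightest bin 47.0% were lower as deposited and 26.5% after quantile normalization.

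Among the 15 largest rises, S8H, the hydroxylase that turns scopoletin into the iron-binding coumarin fraxetin, had the largest rise. Its signal was 33.0 and 56.5 on the standard arrays and 6353 and 6788 on the 72 h arrays. It was 1577 and 1613 at 24 h and 5361 and 5608 at 48 h. All later arrays thus lay far above the standard ones, and the difference at 72 h was 6.79 ± 0.36 (log2, SE, n = 2 arrays per group) with an adjusted p of 1.67e-11 in limma.

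AT2G41730, a locus of the mitochondrial stress response, gave 27.2 and 66.1 on standard medium and 2796 and 3106 at 72 h, a difference of 5.64. UPOX, a mitochondrial protein named for its induction by oxidative stress, gave 16.6 and 4.82 against 1003 and 1277, a difference of 5.46 ± 0.42. ATPMEPCRB, a pectin methylesterase, gave 99.4 and 53.7 against 3408 and 3342, a difference of 5.24 ± 0.22. In each of them both 72 h arrays lay far above both standard arrays, and 1 of the 2 standard signals of UPOX was below the offset of 16. AT3G02480, a late embryogenesis abundant protein, went from 35.6 and 32.1 to 2268 and 1950, a difference of 5.41. IMA1, a small peptide that promotes the iron deficiency response, went from 181 and 120 to 3265 and 2690, a difference of 4.18 ± 0.20. The other large rises were AT5G25840 (5.61), AT1G12030 (5.36), AT2G23270 (4.91), AT4G10270 (4.66), the berberine bridge enzyme-like genes AT1G26380 (4.58) and AT1G26410 (4.44), AT12CYS-2 (4.39), NDB4 (4.33) and AT3G18250 (4.15). Where the standard signals were near or below 16, the offset and the other settings moved the size of the rise, though not its call. Over the alternatives it ran from 4.01 to 7.24 for AT5G25840, from 4.01 to 6.81 for UPOX, from 3.40 to 6.51 for AT2G23270 and from 2.74 to 6.94 for AT1G26410. It ran only from 3.83 to 4.45 for IMA1.

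The 15 largest falls included 5 class III peroxidases. AT2G41810 had the largest fall, from 1007 and 1273 on standard medium to 0.999 and 8.15 at 72 h, a difference of -5.82 ± 0.25 with an adjusted p of 1.75e-12 in limma. SWEET11, a sucrose exporter that loads the phloem in leaves, gave 3352 and 1542 against 37.9 and 53.9, a difference of -5.22 ± 0.34. PER44, a class III peroxidase, gave 6262 and 5208 against 261 and 238, a difference of -4.43 ± 0.21. Non-overlap of the groups was part of the rule that picked the 15 falls. The signals of AT2G41810 at 72 h were at the bottom of the scale. At 24 h SWEET11 stood at 755 and 394 and PER44 at 1434 and 2615, between the standard and the 72 h values. MSRB6, a methionine sulfoxide reductase, gave 734 and 877 on standard medium, 744 and 681 at 24 h, 26.3 and 34.9 at 48 h and 40.8 and 24.7 at 72 h, a difference of -4.09. Its values split by array set, with no overlap between the 24 h and the 48 h arrays. The others were PER8 (-5.42), PER35 (-4.67), AT4G11190, a dirigent protein (-4.39), AT1G62510 (-4.30), AT3G45700, a transporter of the NPF family (-4.30), CYP718 (-4.23), PER21 (-4.10), PER45 (-3.95), AT1G19900 (-3.92), AT5G40510 (-3.91) and EXPA18 (-3.88). Here too the size was loose where the 72 h signals were at the floor, from -8.05 to -4.13 over the alternatives for AT2G41810 and from -7.52 to -2.91 for PER35.

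**Figure D2:**
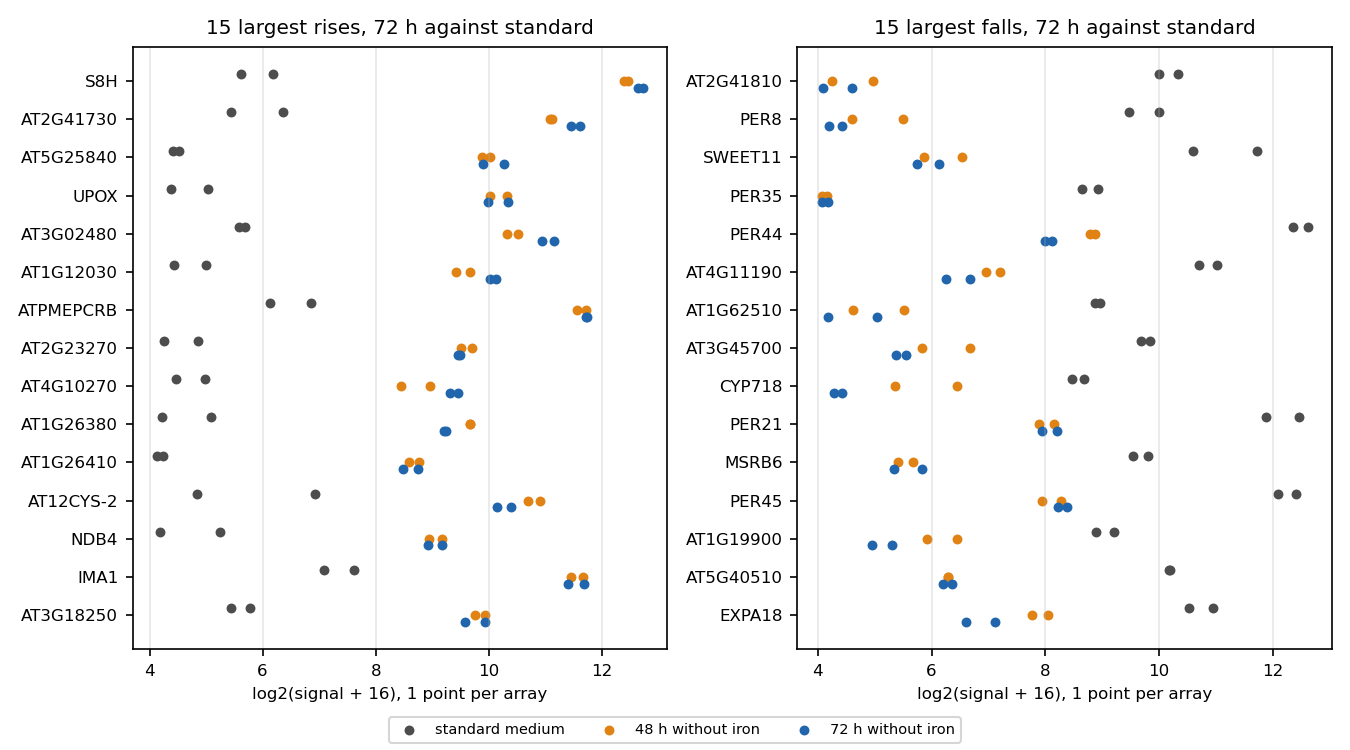
Signal of the 15 largest rises (left) and 15 largest falls (right) at 72 h, as log2(signal + 16) with 1 point per array, for standard medium (grey), 48 h (orange) and 72 h (blue) without iron. The genes were picked so that the 72 h points lie on one side of the standard points. The 48 h points, which that rule did not use, lie on the same side. S8H gave 33.0 and 56.5 on standard medium and 6353 and 6788 at 72 h.

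All 4 paired genes of the list for iron uptake and coumarin secretion were higher at 72 h, where 18.3% of all tested probe sets were. Their median was 3.38 against 0.07. They stand for a list of 22 loci, and the others, the reductase and the ferrous transporter included, were not analysed here. The 4 thus cover coumarin genes and MTP8 only. The list was chosen with earlier results of these data known, so this count is no independent test. F6'H1, which makes scopoletin upstream of S8H, was already at 2507 and 2148 on standard medium and reached 9815 and 7752, a difference of 1.90 ± 0.24. BGLU42, a glucosidase that frees coumarins from their sugar before secretion, went from 298 and 305 to 3451 and 3463, a difference of 3.45 ± 0.19. MTP8, a transporter that moves manganese into the vacuole, went from 129 and 64.1 to 966 and 1137, a difference of 3.30 ± 0.29. In each of the 4 genes both 72 h arrays lay above both standard arrays, as in 37.7% of all tested probe sets. Their median difference was 2.11 at 24 h, within the earlier array set. COSY, the coumarin synthase that closes the ring, rose from 797 and 858 to 1503 and 1807, a difference of 0.98. F6'H2, a second enzyme of the F6'H1 kind, fell from 162 and 141 to 54.8 and 36.3, a difference of -1.46 ± 0.26 with an adjusted p of 0.000158 in limma. HCT, an enzyme of the phenylpropanoid path that feeds lignin, rose from 1615 and 2436 to 6307 and 5199, a difference of 1.52.

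Among the regulators of the iron response, 7 of 11 tested probe sets were higher (63.6%, against 18.3% of all tested). Only 1 was lower (9.09%, against 17.6%), and the median was 1.88. The probe sets stand for 10 of the 20 loci listed, and BTSL1 is counted once for each of its probe sets. IMA1, described above, had the largest rise of the list. BHLH101, a partner of the master regulator FIT, went from 148 and 104 to 1520 and 1408, a difference of 3.40 ± 0.20. PYE, a bHLH factor that represses iron storage and transport genes, went from 239 and 107 to 707 and 809, a difference of 2.12 ± 0.26. BTSL2, an E3 ligase that holds the response back, went from 326 and 318 to 1576 and 1651, a difference of 2.27 ± 0.17. The related BTSL1 rose in both of its probe sets, by 1.88 and 1.93.

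The bHLH factors that act above them moved little. ILR3 rose from 1040 and 792 to 1325 and 1683, a difference of 0.71 ± 0.20. bHLH104 fell from 786 and 692 to 404 and 599, a difference of -0.57 ± 0.21 with an adjusted p of 0.037 in limma. This call was lost without the filter, without a variance trend, without the first 72 h array and without either standard array. bHLH115 (0.07), bHLH121 (0.07) and bHLH34 (-0.12) did not pass the test, and their 72 h and standard arrays overlapped. Of the genes for iron in organelles, MIT1, an iron importer of mitochondria, rose from 141 and 145 to 292 and 273, a difference of 0.91 ± 0.22. Its paralogue MIT2 gave 169 and 257 against 306 and 294, a difference of 0.49 ± 0.22 that did not pass, with an adjusted p of 0.0942 in limma. ZIP9, a zinc transporter, rose by 1.26 ± 0.25, and CCS, the copper chaperone of superoxide dismutase, gave 420 and 790 against 698 and 788 and was not called.

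**Figure D3:**
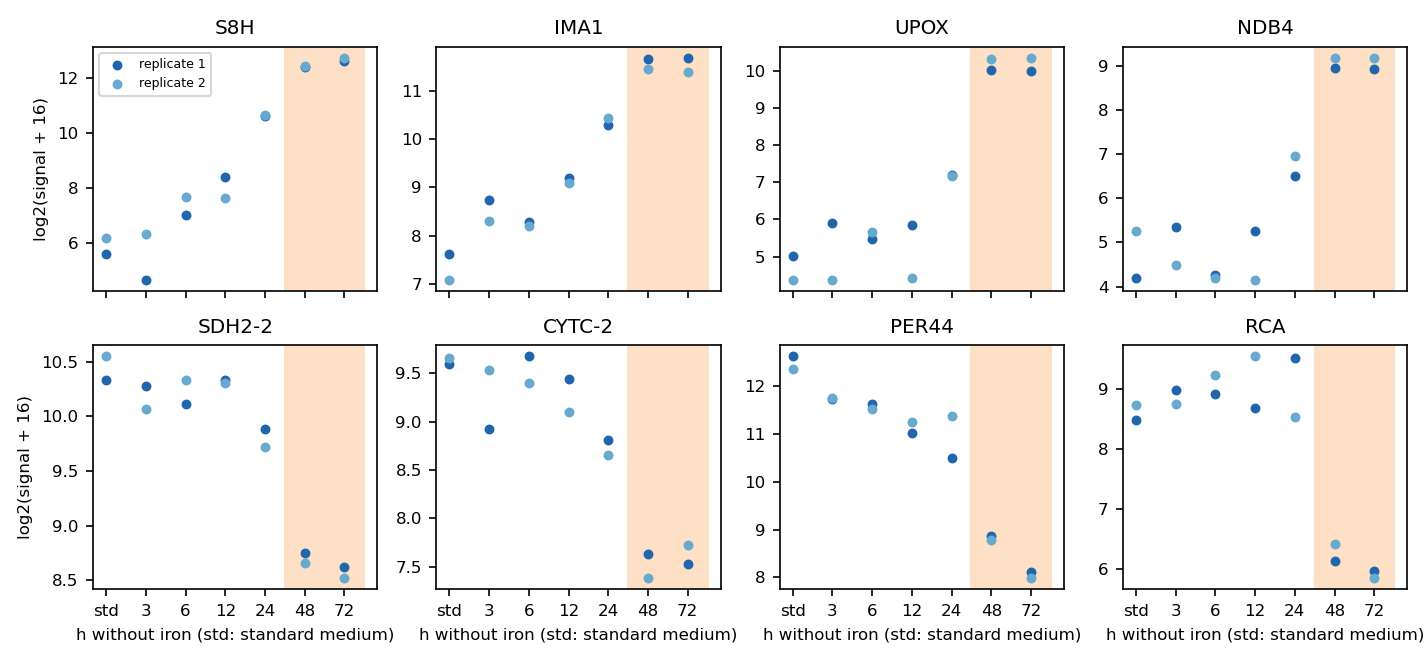
Values of 8 genes as log2(signal + 16) on all 14 arrays, by group, with replicates in dark and light blue and the arrays of the later set (48 and 72 h) on a shaded ground. S8H and IMA1 were higher at 24 h than on standard medium, before the change of array set, whereas RCA stood at 341 and 409 on standard medium, 715 and 355 at 24 h and 46.2 and 41.7 at 72 h.

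Genes of the mitochondrial stress response were higher throughout. All 7 tested members were called higher, where 18.3% of all tested probe sets were, with a median of 4.33. They stand for a list of 20 loci, of which no others were paired with a probe set, and the filter removed none. NDB4 is counted here and again among the alternative NAD(P)H dehydrogenases below. AT12CYS-2, a small mitochondrial protein, gave 105 and 12.5 on standard medium and 1116 and 1327 at 72 h, a difference of 4.39 ± 0.41. DTX3, an efflux transporter, gave 31.1 and 13.9 against 551 and 644, a difference of 4.03 ± 0.36. HSP23.5, a small heat shock protein of mitochondria, gave 96.3 and 73.9 against 995 and 1054, a difference of 3.37 ± 0.22. The standard arrays of AT12CYS-2 differed more than those of the other genes, yet both were below every 72 h array. GSTU25, a glutathione S-transferase, rose from 568 and 510 to 2341 and 2566, a difference of 2.15 ± 0.24. The median of the 7 was 1.54 at 24 h and 4.34 at 48 h, so most of the difference seen at 72 h arose between the 24 h arrays of the earlier set and the 48 h arrays of the later one.

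In the respiratory chain, 3 of 5 tested probe sets of complex II and cytochrome c were lower and 0 higher. Of 5 tested enzymes that bypass complex I, 3 were higher and 0 lower. Over all tested probe sets, 17.6% were lower and 18.3% higher. The number of bypass enzymes called higher was 1 with the filter at the 60th percentile, where fewer probe sets are tested. SDH2-2 and SDH2-1 encode the iron-sulfur subunit of succinate dehydrogenase, complex II. SDH2-2 went from 1276 and 1482 on standard medium to 378 and 351 at 72 h, a difference of -1.87 ± 0.16 with an adjusted p of 2.14e-08 in limma. SDH2-1 went from 1940 and 2132 to 773 and 732, a difference of -1.42 ± 0.20. SDH1-1, the flavin subunit of the same complex, gave 1770 and 2647 against 2260 and 2253, a difference of 0.06 ± 0.17 that did not pass. The 72 h arrays thus lay below the standard arrays for both iron-sulfur genes and between them for the flavin gene.

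The cytochrome c genes, which encode a small heme protein, also parted. CYTC-2 fell from 759 and 794 to 169 and 196, a difference of -2.0 ± 0.21. CYTC-1 gave 4961 and 5965 against 4930 and 4947, a difference of -0.14 ± 0.19 that was not called. On the 24 h arrays of the earlier set, SDH2-2, SDH2-1 and CYTC-2 differed from standard medium by -0.64, -0.56 and -0.89.

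The alternative NAD(P)H dehydrogenases of mitochondria oxidise NADH or NADPH without pumping protons. NDB4 gave 2.21 and 22.1 on standard medium and 468 and 562 at 72 h, a difference of 4.33 ± 0.40. NDB3 gave 22.8 and 50.9 against 320 and 370, a difference of 2.82 ± 0.35. NDB2, an external NADH dehydrogenase, gave 857 and 1021 against 2703 and 2128, a difference of 1.34 ± 0.19. Their groups did not overlap, whereas NDB1 gave 109 and 142 against 103 and 128 and was not called (-0.10), and neither was NDC1 (-0.37). The alternative oxidase genes, which do hold iron, were not analysed here.

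Other iron proteins differed among themselves. SAPX, a heme-dependent ascorbate peroxidase of plastids and mitochondria, fell from 957 and 1509 to 114 and 120, a difference of -3.19 ± 0.22. SIR, the sulfite reductase with siroheme and an iron-sulfur cluster, fell from 1805 and 1881 to 505 and 725, a difference of -1.58 ± 0.18. ISU1, the scaffold on which iron-sulfur clusters are built, gave 1490 and 1251 against 1304 and 1292, a difference of -0.07 ± 0.17. SAPX and SIR differed by -1.11 and -1.23 at 24 h, while the ISU1 arrays overlapped at 72 h.

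Most tested genes known from low oxygen rose. Of the 6 tested members of the hypoxia list, 5 were higher (83.3%, against 18.3% of all tested) and 0 lower, with a median of 2.29. AT3G27220 gave 42.4 and 28.1 on standard medium and 614 and 707 at 72 h, a difference of 3.73 ± 0.26. LDH1, the lactate dehydrogenase of fermentation, gave 279 and 213 against 1704 and 1554, a difference of 2.66 ± 0.22. AT4G27450 gave 262 and 345 against 2179 and 2102, a difference of 2.77 ± 0.34. The 72 h arrays of these genes lay well above the standard arrays and the 48 h arrays lay beside them. AT5G66985 (1.92) and AT1G33055 (1.91) also rose, and AT3G10020 gave 161 and 176 against 199 and 189 and was not called. Because the filter removed 4 of the 10 paired members, the fit without it was read too, where 9 of 10 were higher with a background of 10.5%. HRA1, a factor that dampens the response to low oxygen, gave 3.39 and 12.9 against 202 and 234 there, a difference of 3.30. The median of the 6 tested members was 0.26 at 24 h and 1.92 at 48 h, so the difference appeared together with the later array set, and LDH1 stood at 274 and 235 at 24 h.

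**Figure D4:**
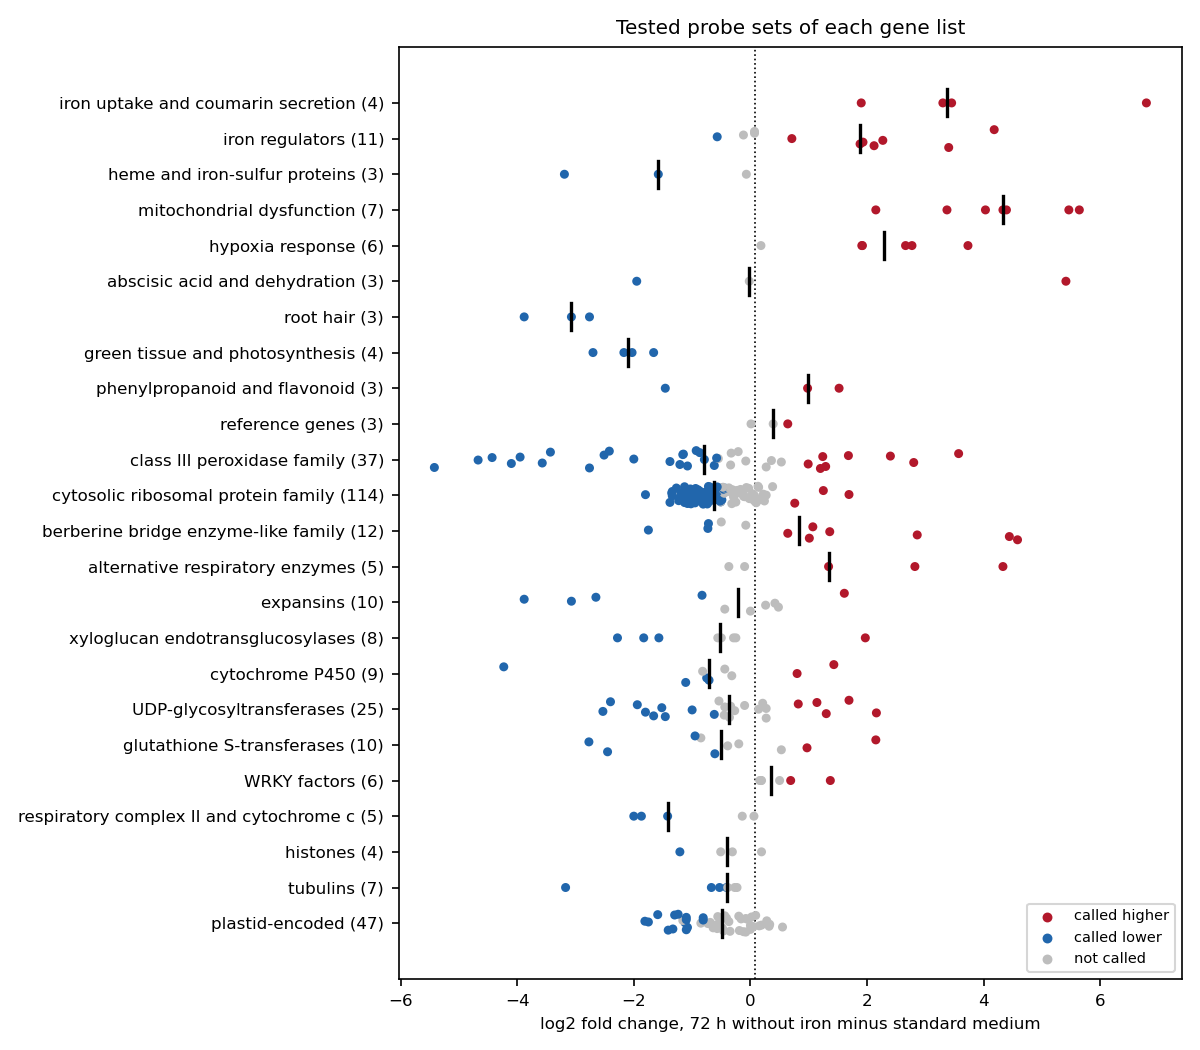
Difference between 72 h without iron and standard medium (log2) for each tested probe set of the gene lists with at least 3 tested, coloured red where called higher, blue where called lower and grey where not called. The black bar is the median of the list, the number of tested probe sets is in brackets, and the dotted line marks the median of all tested probe sets, 0.07. The mitochondrial dysfunction list had a median of 4.33 and the root hair list of -3.07.

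Class III peroxidases are heme enzymes secreted to the cell wall that build and loosen it. Of the 55 family members paired with a probe set, 37 were tested, and the median was -0.79. Of these, 21 were lower (56.8%, against 17.6% of all tested probe sets) and 8 were higher (21.6%, near the 18.3% of all). The count of lower members was 20 after quantile normalization and 21 without the filter. PER69 gave 20326 and 15145 on standard medium and 1507 and 1725 at 72 h, a difference of -3.43 ± 0.19. PER21 went from 5653 and 3781 to 281 and 230, and PER45 from 4352 and 5458 to 284 and 316. The groups of these 3 genes did not overlap, and their differences at 24 h were -1.79, -0.76 and -1.03. PER24 was different, with 421 and 454 on standard medium, 397 and 473 at 24 h and 20.3 and 24.1 at 72 h, a difference of -3.57 ± 0.22.

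Among the peroxidases that rose, PER62 went from 108 and 38.2 to 1107 and 833, a difference of 3.57 ± 0.32 with an adjusted p of 2.62e-08 in limma. PER25 went from 68.4 and 51.3 to 494 and 521, a difference of 2.80 ± 0.24. PER49 gave 295 and 548 on standard medium, 108 and 216 at 24 h, 3129 and 3455 at 48 h and 2071 and 2341 at 72 h, a difference of 2.4 ± 0.28. Its arrays thus lay below the standard ones at 24 h and above them at 72 h. PER55 (1.68), PER11 (1.29), PER47 (1.24), PER5 (1.2) and PER20 (0.99) made up the rest. PER30 gave 2107 and 2236 against 2120 and 1977, with no call.

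**Figure D5:**
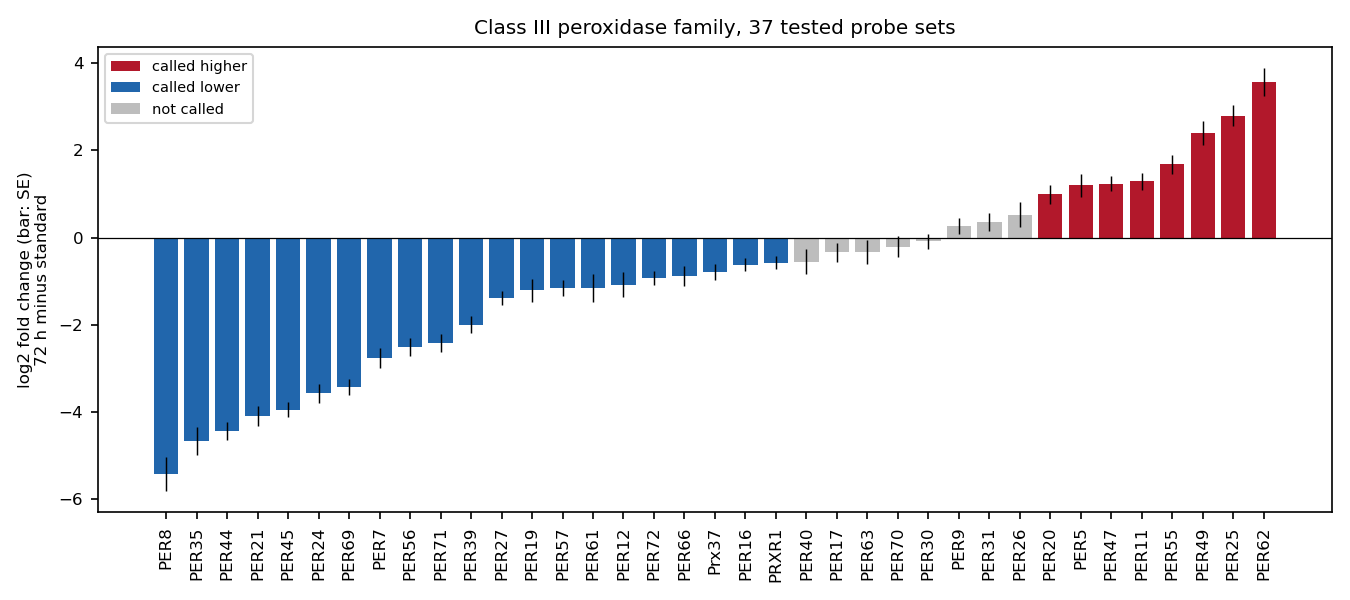
Difference between 72 h without iron and standard medium (log2, with its SE) for the 37 tested members of the class III peroxidase family in order of size, red where called higher, blue where called lower and grey where not called. The bars run from -5.42 for PER8 to 3.57 for PER62.

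Berberine bridge enzyme-like proteins are flavin oxidases of secondary metabolism. Of 22 paired members 12 were tested, and the median was 0.83. Of the 12, 7 were higher and 3 lower, where 18.3% and 17.6% of all tested probe sets were. Without the filter 7 of 22 were higher and 2 lower with a median of -0.07, where 10.5% and 11% of all probe sets were called, so the median of the 12 rests on which members passed. The number higher was 4 without the second 72 h array and 4 without the second standard array, and the number lower was 1 after quantile normalization. The largest differences sat in one run of neighbouring loci. AT1G26380, which acts in making an indolic defence compound, went from 2.57 and 17.8 to 592 and 576. AT1G26410 went from 1.51 and 2.75 to 416 and 342, and AT1G26420 from 10.1 and 37.1 to 229 and 281, a difference of 2.86 ± 0.36. AT1G26390, of the same run, gave 20.3 and 23.3 on standard medium, 75.3 and 84.6 at 24 h and 57.4 and 63.0 at 72 h, a difference of 1.01 ± 0.33. These genes resemble each other in sequence, and the part of cross-hybridisation in their values was not tested. AT2G34810, elsewhere in the genome, fell from 117 and 135 to 27.3 and 24.9, a difference of -1.75 ± 0.26.

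All 3 paired root hair markers were called lower, where 17.6% of all tested probe sets were, with a median of -3.07. They stand for a list of 24 loci, and the others were not analysed here. EXPA18, an expansin of root hair cells, went from 1966 and 1469 to 81.5 and 123. EXPA7, its close relative, went from 1379 and 824 to 103 and 122, a difference of -3.07 ± 0.22. PER7, a peroxidase of root hairs, went from 3907 and 2631 to 398 and 532, a difference of -2.76 ± 0.23. All 3 gave signals of 824 or more on the standard arrays and their differences at 24 h were -1.39, -0.86 and -0.84. In whole roots, fewer cells of a type and less RNA per cell cannot be told apart, here and in all results below.

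Of 19 paired expansins, which loosen walls during growth, 10 were tested. Of these, 4 were lower and 1 higher, where 17.6% and 18.3% of all tested probe sets were. Without the filter 5 of 19 were lower and 2 higher, where 11% and 10.5% of all probe sets were. The number higher was 2 without the second standard array. EXPB1 fell from 849 and 641 to 105 and 103, a difference of -2.65 ± 0.20, and EXPA15 fell from 343 and 577 to 228 and 261. EXPA4 rose from 367 and 532 to 1175 and 1617, a difference of 1.61 ± 0.21. HRGP1, a hydroxyproline-rich wall protein of the extensin kind, fell from 3028 and 2437 to 459 and 699, a difference of -2.23 ± 0.26. Its groups were well apart, while AT3G09000, the other tested gene of that list, overlapped.

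Xyloglucan endotransglucosylases, which cut and rejoin wall xyloglucan, had 3 lower of 8 tested (37.5%, against 17.6% of all tested). They had 1 higher (12.5%, against 18.3%). XTH16 fell from 173 and 181 to 25.8 and 21.7 (-2.28), XTH21 fell by 1.83 and XTH18 by 1.57. XTH20 rose from 119 and 46.4 to 366 and 323, a difference of 1.97 ± 0.34. Its neighbour in the family, XTH19, gave 337 and 554 against 366 and 338 and overlapped. PMEPCRF, a pectin methylesterase like ATPMEPCRB, moved against it and fell from 686 and 841 to 299 and 293, a difference of -1.31 ± 0.17.

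Of the tubulins, the subunits of microtubules, 4 of 7 were lower (57.1%, against 17.6% of all tested probe sets) and 0 higher. TUB1 stood apart, with 1915 and 1492 on standard medium, 1177 and 1270 at 24 h and 171 and 177 at 72 h, a difference of -3.17 ± 0.20. TUB7 (-0.67), TUA6 (-0.53) and TUB6 (-0.41) were also called, and TUB9, TUA1 and TUB5 were not. The number lower was 2 with median centring, 1 without the first 72 h array, 2 without the second and 1 without the second standard array. The differences of TUA6 and TUB6 are near the median of the brightest probe sets, -0.39. Among 4 tested histone genes only HIS1-3, a linker histone, was called, with 224 and 68.7 on standard medium and 44.6 and 46.2 at 72 h. This call was lost without either 72 h array or without the first standard array.

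Most tested genes for cytosolic ribosomal proteins were lower, and the size of the difference moved with the scaling. Of 126 paired members 114 were tested, and the median was -0.63 against 0.07 for all tested probe sets. Of the 114, 71 were lower (62.3%, against 17.6% of all tested) and 3 higher (2.63%, against 18.3%). After quantile normalization 51 were lower and 5 higher with a median of -0.40, and without the second standard array 47 were lower. Both 72 h arrays lay below both standard arrays in 89 of the 114 and above them in 6, against 31.8% and 37.7% of all tested probe sets. The median member had a mean signal of 3260 on standard medium and 1930 at 72 h, and among the brightest probe sets of the array the median difference was -0.39 as deposited and -0.02 after quantile normalization. The median at 24 h was 0.08 and at 48 h -0.50.

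AT3G60245 had the largest fall among the ribosomal genes. It gave 12780 and 13519 on standard medium, 10663 and 12569 at 24 h and 3555 and 3968 at 72 h, a difference of -1.80 ± 0.20. PGY1, a ribosomal protein gene that also affects leaf shape, fell from 4288 and 4797 to 1892 and 1591, a difference of -1.38 ± 0.18. AT4G25890 fell from 1050 and 1205 to 426 and 439, and the groups of all 3 were apart. AT2G40010 went the other way, from 162 and 223 to 615 and 685, a difference of 1.69 ± 0.20. AT5G39850 (1.25) and AT3G13580 (0.76) also rose.

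Photosynthesis genes, markers of green tissue, gave signals of at most 409 on the standard arrays among those tested and were lower at 72 h. Of 9 paired nuclear genes 4 were tested and all 4 were called lower, where 17.6% of all tested probe sets were. Their median was -2.10, and without the filter 8 of 9 were lower with a background of 11%. RCA, the activase of Rubisco, gave 341 and 409 on standard medium, 715 and 355 at 24 h, 54.0 and 69.7 at 48 h and 46.2 and 41.7 at 72 h, a difference of -2.70 ± 0.28. LHCB4.1, a light-harvesting protein, gave 273 and 265 against 56.1 and 39.5, a difference of -2.17 ± 0.23. PSAE-1, a subunit of photosystem I, fell by 2.03, and HPR, an enzyme of photorespiration, by 1.66. The median of the 4 was 0.32 at 24 h and -1.71 at 48 h, so the drop lay between the array sets. The part of traces of green tissue at the cut end in these values was not tested.

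Of 69 paired genes of the plastid genome, 47 were tested, 14 were lower (29.8%, against 17.6% of all tested probe sets) and 0 higher, and the median was -0.48. Without the filter 6 of 69 were lower and 2 higher, where 11% and 10.5% of all probe sets were. The number lower was 8 without a variance trend, and smaller still without the first 72 h array or the first standard array. The standard arrays differed from each other for many of them. rps4 gave 660 and 138 on standard medium and 51.5 and 110 at 72 h, a difference of -1.81 ± 0.60. psbF, a subunit of photosystem II, gave 441 and 781 against 198 and 225, a difference of -1.41 ± 0.28. Both had 72 h arrays below the standard arrays, and this held for 23 of the 47, while 23 overlapped, beside 31.8% of all tested probe sets with both 72 h arrays below.

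Of 45 paired UDP-glycosyltransferases, which attach sugars to small molecules, 25 were tested, with 9 lower (36.0%, against 17.6% of all tested) and 5 higher (20.0%, near the 18.3% of all). UGT72E1, which glucosylates lignin precursors, rose from 1115 and 1009 to 5303 and 4343, a difference of 2.16 ± 0.22, and was at 1999 and 2544 at 24 h. GT72B1, which glucosylates foreign phenols, fell from 926 and 1004 to 155 and 154, a difference of -2.53 ± 0.18. UGT78D2, a flavonoid glucosyltransferase, fell from 905 and 1074 to 313 and 389. The groups were apart in all 3. UGT87A2 (1.69) and UGT73D1 (1.3) were the next largest rises and UGT71C1 (-2.40) and UGT74D1 (-1.94) the next largest falls.

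Of 10 tested glutathione S-transferases 2 were higher (20.0%, near the background of 18.3%) and 4 lower, and 2 were lower without the first 72 h array. GSTU25 and GSTU26 lie side by side and moved in opposite directions. GSTU25 rose as given above, and GSTU26 fell from 1146 and 885 to 124 and 144, a difference of -2.77 ± 0.22. GSTU28 fell from 591 and 558 to 104 and 80.6, a difference of -2.45 ± 0.20. GSTU22 rose from 2030 and 1745 to 3550 and 3874, a difference of 0.97 ± 0.16.

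Cytochrome P450 enzymes carry heme, and of 24 paired members 9 were tested. Of the 9, 4 were lower (44.4%, against 17.6% of all tested) and 2 higher (22.2%, near the background of 18.3%). Without the filter 2 of 24 were lower, where 11% of all probe sets were. The number lower was 1 without the first standard array and 2 without either 72 h array, and the number higher was 1 without the second 72 h array or the first standard array. CYP718 gave 397 and 340 on standard medium and 5.51 and 3.48 at 72 h, with the groups far apart. CYP71B6, which makes an indole carboxylic acid, rose from 743 and 624 to 2004 and 1735, a difference of 1.43 ± 0.18. CYP84A4 (-1.11) fell and CYP71B26 (0.80) rose. Of 6 tested WRKY factors, which regulate defence and senescence genes, 2 were higher (33.3%, against 18.3%). WRKY53 rose from 72.7 and 72.4 to 210 and 214, a difference of 1.37 ± 0.25. WRKY22 (0.69) lost its call without any of 3 arrays (both 72 h arrays and the first standard array). The number of WRKY factors higher was 1 without the filter or with centring on the median of the tested probe sets. It was 0 with the filter at the 60th percentile.

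FDH, a mitochondrial formate dehydrogenase, fell from 168 and 166 to 28.4 and 36.1, a difference of -1.93 ± 0.28. Of the 3 tested genes of dehydration and cold, 1 was higher (33.3%, against 18.3% of all tested) and 1 lower (33.3%, against 17.6%). AT3G02480 was the rise given above. COR47, a dehydrin, fell from 10669 and 11260 to 2838 and 2827, a difference of -1.95 ± 0.15, and stood at 7361 and 7931 at 24 h. LTI30, another dehydrin, gave 2097 and 2126 against 2458 and 1758 and overlapped. EIN3, the main factor of ethylene signalling, gave 1038 and 1060 against 1445 and 1313, a difference of 0.39 ± 0.16 with an adjusted p of 0.0611 in limma. GSO1, a receptor kinase needed for a closed Casparian strip, gave 534 and 536 against 717 and 688, a difference of 0.38 ± 0.16 that did not pass. PRL, a subunit of the helicase that opens DNA for replication, gave 209 and 277 against 207 and 214.

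Among genes used as references for RNA amount, SAND gave 385 and 501 on standard medium and 475 and 414 at 72 h, a difference of 0.01 ± 0.19. TIP41L gave 337 and 382 against 505 and 448, a difference of 0.39 ± 0.24 that was not called. PEX4, a ubiquitin-conjugating enzyme, rose from 536 and 517 to 797 and 858, a difference of 0.64 ± 0.16 with an adjusted p of 0.00357 in limma, and it was at 762 and 696 at 24 h. SAND overlapped between the groups, and the other two lay higher on both 72 h arrays. No paired probe set was found for the lists of nitrogen, phosphate, xylem, suberin, root cap and aquaporin genes, so these markers of root tissues were not analysed here.

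Between 48 and 72 h, both on the later arrays, few probe sets were called. With 2 arrays per group, this does not show that the others were unchanged. At an adjusted p of 0.05 limma called 2 of 13648 probe sets (0.0147%), and 568 passed an unadjusted p of 0.05. AT3G58550 rose, from 886 and 662 at 48 h to 2351 and 2059 at 72 h, a difference of 1.5 ± 0.22 with an adjusted p of 0.0092. On standard medium it gave 583 and 912, and at 24 h 1077 and 774, so only the 72 h arrays stood out. The other call, which the platform's table pairs with no gene, fell from 416 and 506 to 161 and 169, a difference of -1.39 ± 0.16 with an adjusted p of 0.00049. It had been at 3161 and 2786 on standard medium and at 2421 and 2332 at 24 h. The count of calls was 0 without the second 48 h array, 1 without either 72 h array and 51 when only the 4 arrays compared were fitted.

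No member of any gene list was called between 48 and 72 h. EXPA18 had 202 and 248 at 48 h and 81.5 and 123 at 72 h, with a difference of -1.04. PER44 had 451 and 427 against 261 and 238 (-0.78), and HSP23.5 had 582 and 569 against 995 and 1054 (0.81). None of these passed the adjusted test, although the arrays did not overlap. S8H (0.26), IMA1 (-0.02), UPOX (0.00) and NDB4 (-0.01) differed less between the times than their standard arrays differed from each other.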

How the data were processed

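Per the labels' protocols, root RNA was amplified in one cycle and hybridised to Affymetrix arrays. The authors deposited linear intensities per probe set, which the submitters' processing notes credit to MAS5. The 2% trimmed mean was 250.02 or 250.03 on each array, and this scaling was kept. Of 22810 probe sets, 13513 were paired with 1 gene (13436 matched a reference locus), 503 with several and 8730 with none, beside 64 controls. Symbols come from the reference table or, where it has none, from the literature by locus (S8H, IMA1, UPOX, PER numbers and others).

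On the log2(signal + 16) scale, the lowest 40% by mean over 14 arrays were left out (a level of 49.6). limma 3.58.1 in R 4.3.3 fitted 1 mean per group to all 14 arrays (7 residual degrees of freedom, variance prior following the mean), with Benjamini-Hochberg adjustment over 13648 probe sets and a threshold of 0.05. Named are the 15 largest rises and falls among called probe sets with 1 gene and no overlap, and up to 3 per list and direction or all of a short list. Other list members named beside them were picked after their values were seen. Members and lists were chosen with earlier results of these data known. In simulated data with 13648 probe sets, 41% of 2-fold and 97% of 4-fold changes were recovered. Few probe sets were changed there and the noise was independent, so these shares need not hold where 35.9% were called. Replicate numbers did not pair the samples: over 21 pairs of groups, same-numbered deviations correlated at -0.143 to 0.266, above 0.1 in 4. Replicate arrays correlated at 0.965 (standard) and 0.984 (72 h). The number of arrays limits the precision. Alternatives were other scalings, pseudocounts and filters, no trend, a fit of 4 arrays, the replicate block, a 2-fold threshold and leaving out each array.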

Additional observations from a re-analysis of the deposited data

How the results depend on the processing

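The direction held in every alternative for the 15 largest rises and 15 largest falls, and their calls held in all 409 combinations of gene and setting that tested them. Over all 86 named genes and 1180 combinations, 1164 calls were kept, 9 were lost and 7 gained, with 0 reversed. Calls at 72 h against standard medium ran from 4418 (quantile normalization) to 5073 (replicate block, 2603 higher and 2470 lower) with all arrays and the low filter or none, and were 3805 with the filter at the 60th percentile, where fewer probe sets are tested. With a 2-fold threshold 2219 were called, 975 higher and 1244 lower. Leaving out 1 array gave 3283 to 4045 calls, 1584 to 2049 higher and 1699 to 1996 lower. For 72 h against 48 h, 51 were called with the 4 arrays alone, 15 with a pseudocount of 1, 6 with a pseudocount of 64, 7 with quantile normalization, 7 with the replicate block and 0 to 2 with 1 array left out. The cause of these shifts was not tested. Of 720 list counts under alternatives 63 moved by over 1.5 times, and of 336 list medians 38 moved by more than the replicate spread, with 0 reversed. For mitochondrial dysfunction, the count of higher probe sets was 4 with the stricter filter, and the median ran from 2.94 (pseudocount 64) to 5.01 (pseudocount 1). Array set cannot be separated from time, signals near the floor bound no fold change, and the age of the roots is unsettled.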
